A study of Mus musculus with 11 samples.

Results

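The nuclear genes of oxidative phosphorylation were followed across 11 RNA libraries of mouse thymocytes. They were chosen by name, as protein-coding genes whose symbols begin with Nduf, Sdh, Uqcr, Cox4 to Cox8 or Atp5. The deposited count tables held 99 such genes, and the 78 that both normalized tables list were kept, of 10531 genes common to those tables. No fold change entered the naming rule, although members were chosen with earlier results of these data known. The RNA came from thymocytes sorted by flow cytometry as negative for CD24 and TCRβ, a fraction without most developing T cells. The Bcl11b table covers mice at postnatal day 0, with 2 libraries for each of 3 genotypes: Bcl11b +/+, +/N440K, and D/N440K. N440K is a substitution in Bcl11b, a zinc-finger transcription factor of the T lineage, and the meaning of D is not given in the labels. The Tcf7 table covers mice at postnatal day 7, with 2 Tcf7 +/+ libraries beside 3 of the genotype Tcf7 F/F:Vav1-Cre, where Cre driven by the blood-cell gene Vav1 acts on a floxed Tcf7, another T-lineage transcription factor. The labels do not tell whether replicates came from different animals, so p-values measure the spread between these libraries, which may be technical.

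Oxidative phosphorylation takes place in the inner mitochondrial membrane. Complexes I and II pass electrons from NADH and succinate to ubiquinone, complex III passes them to cytochrome c, and complex IV passes them to oxygen. Complexes I, III and IV pump protons, and complex V, the ATP synthase, lets them flow back through a rotating ring to make ATP. Most subunits are encoded in the nucleus and a few by mitochondrial DNA. Dividing lymphocytes are known to draw on both this pathway and glycolysis.

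Complex I gave 39 of the 78 members, with 7 core subunits, 26 accessory subunits and 6 assembly factors. Complex II gave 5, complex III 7, complex IV 12 (Ndufa4 among them, which is named for complex I and sits in complex IV) and complex V 15. Their genes lie on 19 chromosomes.

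Stretches upstream of members were read from RefSeq promoter sequence (GRCm38.p6), for the 66 members with a match. Factors known to act at many such genes are NRF1, searched as GCATGCGC, and the ETS family that includes Gabpa, searched as CCGGAAG, each on both strands of the 250 bases before an annotated start. The NRF1 letters were in 8 of 66 members (12.1%) and in 2.56% of all 27025 genes of the RefSeq table, and the ETS letters in 14 members (21.2%) and 7.83% of all genes. The letters AANATGGCG, for the factor YY1, were in 4 members (6.06%) and 1.29% of all genes, and CCAAT in 27 members (40.9%) and 37.5% of all genes. All genes of that table include many that these cells may not express. The stretches here overlap no annotated exon. They show the NRF1 letters at a member from either end of the order of levels, the ETS letters at a member from between, and stretches of called members, with the letters in capitals. Cox6a1 (chr5:115348982-115349129, minus strand) was the highest member per kilobase in the Bcl11b table and Ndufaf4 (chr4:24897833-24898082, plus strand) the lowest, and both carry the NRF1 letters. Ndufb6 (chr4:40279422-40279671, minus strand), an accessory subunit of complex I with 38.5 CPM per kb in the Tcf7 table, was picked, after its sequence was seen, to show the ETS letters. Atp5j (chr16:84835626-84835875, minus strand) and Atp5c1 (chr2:10080511-10080592, minus strand) are 2 of the 3 members that fell in Tcf7 F/F:Vav1-Cre, and these stretches hold neither set of letters. Atp5j has another annotated start, whose 250 bases (chr16:84834977-84835226) hold the ETS and the YY1 letters once each, so Atp5j is among the 14 members with ETS letters. Cox6a1 is also among those 14, through letters nearer its start than the stretch printed. A match is a string of letters and not a measured site.
Cox6a1: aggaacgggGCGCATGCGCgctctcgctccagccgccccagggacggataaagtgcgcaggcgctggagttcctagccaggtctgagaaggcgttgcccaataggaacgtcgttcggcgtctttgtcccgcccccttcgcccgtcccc
Ndufaf4: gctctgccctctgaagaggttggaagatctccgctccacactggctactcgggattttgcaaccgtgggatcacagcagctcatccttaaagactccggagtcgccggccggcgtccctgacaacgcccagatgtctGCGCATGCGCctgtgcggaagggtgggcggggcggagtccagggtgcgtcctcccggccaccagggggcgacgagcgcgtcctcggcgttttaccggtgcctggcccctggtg
Ndufb6: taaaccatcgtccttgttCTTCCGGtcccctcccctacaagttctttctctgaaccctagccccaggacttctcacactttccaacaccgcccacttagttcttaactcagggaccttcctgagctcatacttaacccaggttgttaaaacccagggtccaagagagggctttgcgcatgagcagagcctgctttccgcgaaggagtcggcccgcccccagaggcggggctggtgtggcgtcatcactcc
Atp5j: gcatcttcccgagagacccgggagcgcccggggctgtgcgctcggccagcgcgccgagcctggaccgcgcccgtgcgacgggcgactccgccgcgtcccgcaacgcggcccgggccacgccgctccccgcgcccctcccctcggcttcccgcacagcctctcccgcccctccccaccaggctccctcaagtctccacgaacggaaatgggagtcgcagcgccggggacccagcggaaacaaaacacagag
Atp5c1: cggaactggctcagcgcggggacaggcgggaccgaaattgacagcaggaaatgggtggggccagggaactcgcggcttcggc

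Total counts per library ran from 999381 to 1842717. The Tcf7 +/+ libraries differed from each other by more than other replicates did: chi-square per degree of freedom over genes with at least 20 reads was 4.94 for them and 1.14 to 2.16 for the other replicate pairs. Each library was counted separately. Tcf7 itself stood at 552 and 594 CPM (counts scaled to a common library size) under the label Tcf7 +/+ and at 847, 658 and 694 CPM under the label Tcf7 F/F:Vav1-Cre, and a count over all exons of a gene does not check the loss of some of them. Cd3e, a marker of T-lineage cells, and Il2rb were detected in every library. Cd3e stood at 496 to 508 CPM for Bcl11b +/+, 299 to 315 for +/N440K and 231 to 235 for D/N440K. For Tcf7 +/+ it stood at 369 and 402 CPM, against 151 to 161 for Tcf7 F/F:Vav1-Cre. Il2rb was higher with N440K: 1491 to 1522 CPM for Bcl11b +/+, 1945 to 2118 for +/N440K and 2003 to 2139 for D/N440K. It had 950 and 811 CPM for Tcf7 +/+ and 867 to 1060 for Tcf7 F/F:Vav1-Cre. Of the markers sorted against, Cd24a was at or below 12.5 CPM, while Trbc2, a constant part of TCRβ, stood between 100.7 and 205 CPM. In bulk RNA, fewer cells of a type and less RNA per cell cannot be told apart.

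The members together took between 0.448 and 0.645% of each library's normalised counts. CPM is not corrected for length, so genes were compared with each other as CPM per kilobase of annotated exon. On that scale the members ran from 3.44 to 271 CPM per kb with a median of 27.8 in the Bcl11b table, and from 1.87 to 162 with a median of 27.6 in the Tcf7 table. Before correction for length, their median average level was 5.64 log2 CPM against 5.60 for all tested genes in the Bcl11b table, and 5.47 against 5.39 in the Tcf7 table.

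Subunits of complexes IV and V led the order of levels. Cox6a1, a small subunit of cytochrome c oxidase, had 271 CPM per kb in the Bcl11b libraries and 154 in the Tcf7 libraries. Atp5a1, the alpha subunit of the ATP synthase head, had 209 and 162 CPM per kb in the same order. Ndufa2, an accessory subunit of complex I, had 154 and 98.5, and Cox4i1, a subunit of complex IV, had 96.2 and 108. These are the members found among the leading 3 of either table. At the other end, Ndufaf4, an assembly factor of complex I, had 3.44 and 4.04 CPM per kb. Atp5l, subunit g of ATP synthase, had 3.44 and 4.11, and Ndufab1, the mitochondrial acyl carrier protein, had 3.89 and 1.87. The accessory subunit Ndufb2 and Atp5s, a factor since renamed Dmac2l, were among the lowest of the Tcf7 libraries, at 3.53 and 3.6.

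Subunits of the same complex stood at unlike levels per kilobase. In the head of ATP synthase, Atp5a1 and Atp5b, the alpha and beta subunits, had 209 and 122 CPM per kb in the Bcl11b libraries, and Atp5c1, the gamma subunit that turns inside them, had 51.6. In complex I, the core subunit Ndufs7, which sits close to the ubiquinone site, had 76.1 CPM per kb, Ndufv1, which takes electrons from NADH, had 50.0, and Ndufs1, a large iron-sulphur subunit, had 7.97. Complex II ran from Sdhd, a membrane anchor, at 59.9 CPM per kb to Sdhaf2, which helps FAD onto Sdha, at 7.76. In complex III, the core proteins Uqcrc1 and Uqcrc2 had 84 and 40.3 CPM per kb and Uqcrfs1, the Rieske iron-sulphur protein, had 30.5. Annotated exons include those of rare long transcripts. They sum to 8086 bases for Ndufs1, 7195 for Sdhaf2, 6883 for Ndufab1 and 6443 for Atp5l. The low values of these genes rest partly on those lengths. With the length of the longest principal transcript instead, the median was 54.2 CPM per kb for the Bcl11b libraries and 49.9 for the Tcf7 libraries. Atp5e and Cox4i1 then led in place of Cox6a1 and Atp5a1. The lowest were still Ndufaf4 in the Bcl11b libraries and Ndufab1 in the Tcf7 libraries, each at 3.69.

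**Figure D1:**
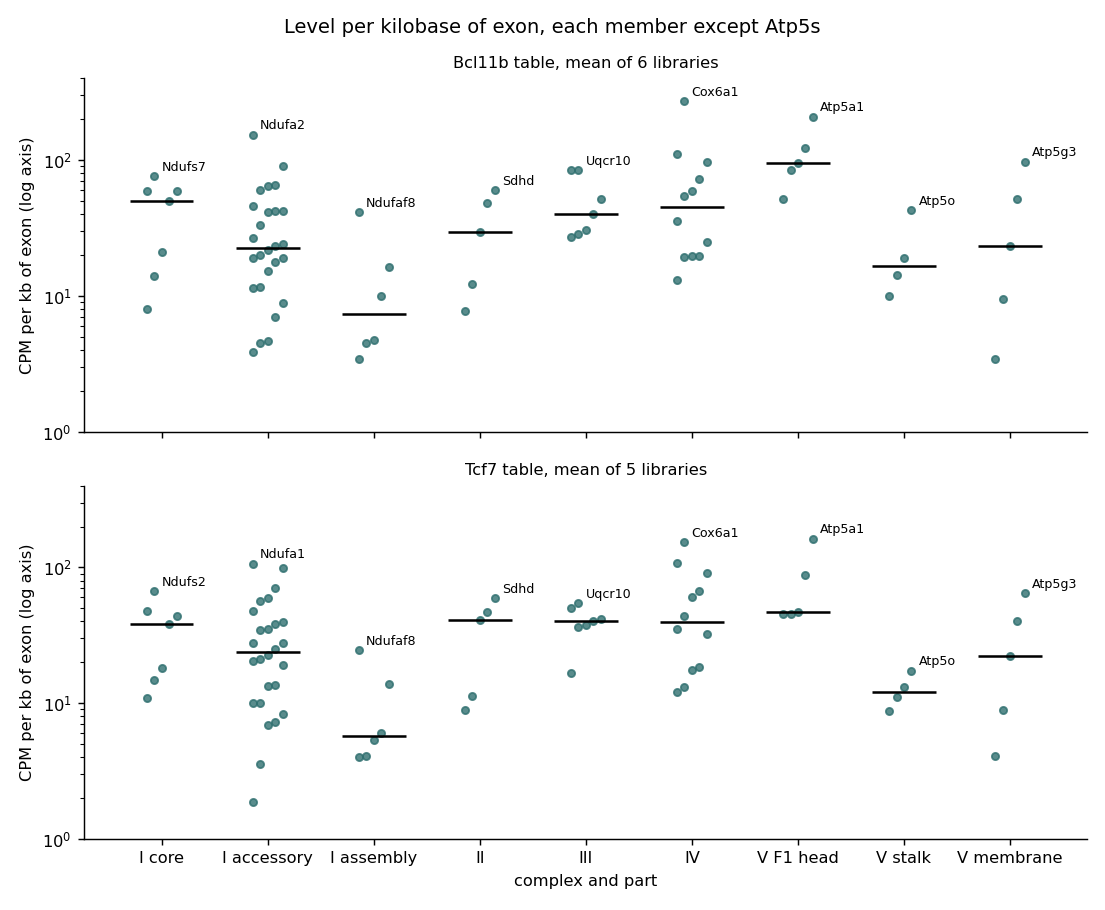
Level of each member except Atp5s, which belongs to none of these parts, as CPM per kilobase of annotated exon (log axis), by complex and part, as the mean of 6 libraries of the Bcl11b table and of 5 of the Tcf7 table; lines are medians. Members span from 3.44 to 271 CPM per kb in the Bcl11b table and from 1.87 to 162 in the Tcf7 table.

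The summed level of the members overlapped between the Bcl11b genotypes. The +/+ libraries summed to 5911 and 5739 CPM, the +/N440K libraries to 5824 and 6453, and the D/N440K libraries to 5890 and 6130. The higher +/N440K library stood alone at the top, and the lower lay between the +/+ libraries. Complex V took the largest part, with 2051 to 2142 CPM for +/+, 2037 to 2397 for +/N440K and 2110 to 2223 for D/N440K. For Tcf7 +/+ the sum of all members was 5152 and 5248 CPM, against 4796, 4919 and 4480 for Tcf7 F/F:Vav1-Cre, so all 3 libraries of the latter lay below both of the former. Complex V ran from 1580 to 1773 CPM for Tcf7 +/+ and from 1337 to 1508 for Tcf7 F/F:Vav1-Cre, without overlap. Complex II (473 to 502 against 417 to 459 CPM) did not overlap either. Complex III parted narrowly, at 512.8 to 536.6 against 452.0 to 511.3 CPM. Complex I (1706 to 1813 against 1608 to 1763 CPM) and complex IV (732 to 773 against 660 to 772 CPM) overlapped. Among single genes tested in this comparison, 48.8% did not overlap between the groups. Levels were not compared between the tables, which differ in age and were normalized separately.

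**Figure D2:**
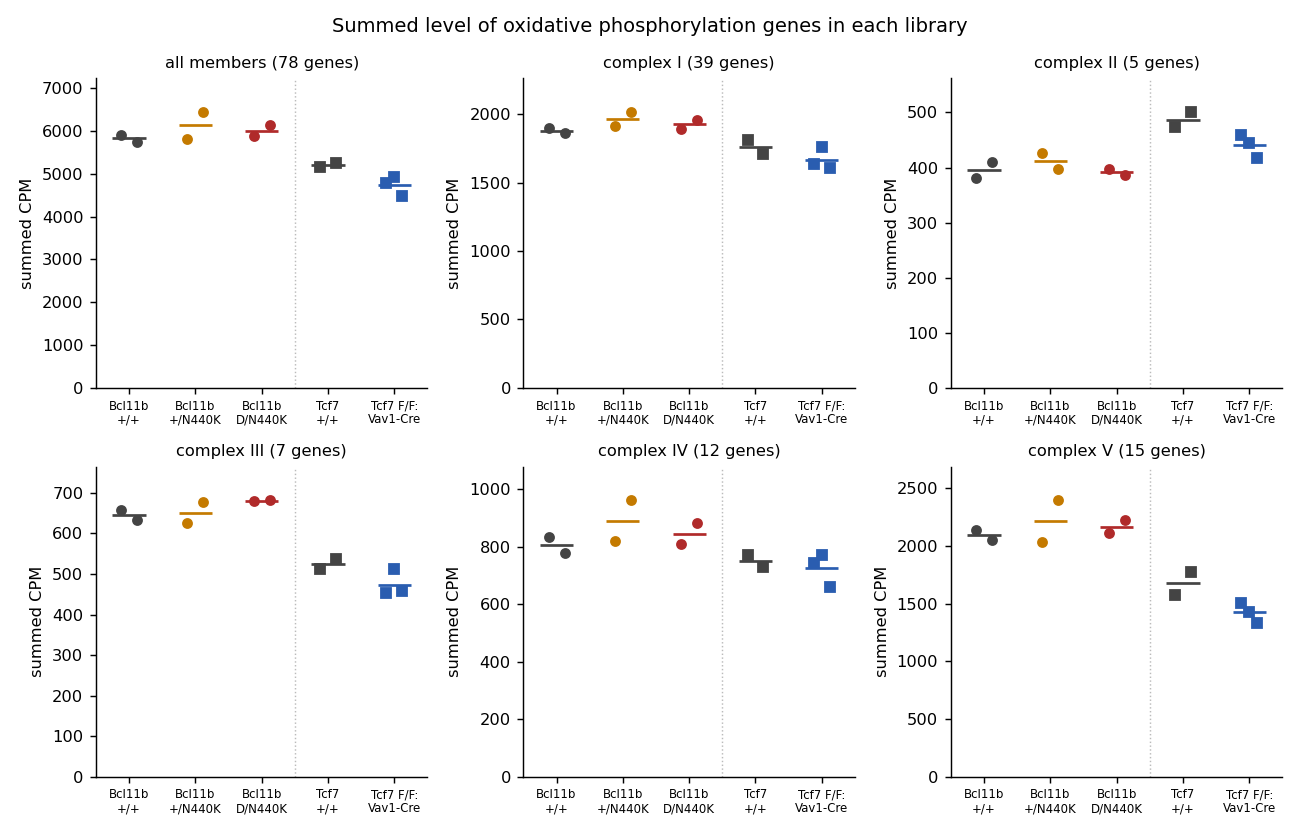
Summed CPM of all 78 members and of each complex in each of the 11 libraries (points), with group means (lines). The Bcl11b groups overlap for the sum of all members, and the 3 Tcf7 F/F:Vav1-Cre libraries (4480 to 4919 CPM) lie below the 2 Tcf7 +/+ libraries (5152 and 5248 CPM).

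The comparison of +/N440K with +/+ addressed the mutant allele beside a normal copy. No member passed the test, beside 10.1% of the 10910 genes tested (edgeR quasi-likelihood test, adjusted p under 0.05 over all tested genes). At an unadjusted p under 0.05 there were 3 of 78 members, beside 20.5% of all genes, and DESeq2 called 0 members, with 0 at its own unadjusted p under 0.05. The median log2 fold change of the members was 0.09, beside 0.00 for all genes, with 52 members above 0 and 26 below. Complex IV had 10 of 12 members above 0 (median 0.15), and all 6 assembly factors of complex I were above 0 (median 0.17), beside 50.3% of all genes. The complex IV sums overlapped, at 835 and 780 CPM for +/+ and 821 and 962 for +/N440K. Those of the assembly factors did not, at 101 and 98.8 against 113 and 121 CPM. The 95% interval lay within a change of 2-fold in either direction for 69 of the 78 members and for 73.3% of all genes. The groups did not overlap for 24 members, 17 of them higher in +/N440K, beside 47.8% of all genes.

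Ndufv3, an accessory subunit beside the NADH site of complex I, had the smallest adjusted p. The +/+ libraries had 89 and 92.2 CPM, those of +/N440K 71 and 70.1 and those of D/N440K 64.2 and 75.3. Every library with the mutant allele was below both +/+ libraries. The log2 fold change against +/+ was -0.36 ± 0.157 (SE) for +/N440K (edgeR adjusted p = 0.162) and -0.39 ± 0.159 for D/N440K (edgeR adjusted p = 0.117), and both values rest on the same +/+ libraries. Cox8a, a small subunit of complex IV, had 61.4 and 60.6 CPM for +/+, 73.4 and 84.9 for +/N440K and 65.9 and 64.1 for D/N440K, which was 0.37 ± 0.168 for +/N440K against +/+ (edgeR adjusted p = 0.192). Both +/N440K libraries were above all others. Sdhb, the iron-sulphur subunit of complex II, had 97.2 and 95.5 CPM for +/+, 111 and 129 for +/N440K and 100.2 and 120.1 for D/N440K, which was 0.31 ± 0.142 for +/N440K against +/+ (edgeR adjusted p = 0.192).

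The highest values for +/N440K against +/+ were those of Ndufb3 (0.61), Ndufaf4 (0.48) and Ndufaf3 (0.43), and the lowest those of Ndufv3 (-0.36), Ndufa8 (-0.34) and Cox7a2 (-0.32). None passed the test. Ndufb3, an accessory subunit, rested on 5 and 9 reads for +/+ and 10 and 12 for +/N440K, and its interval ran from -0.43 to 1.65. Without the first +/N440K library that group keeps a lone library, and the share of members called was below that of all genes. Called higher were Atp5g3 (0.37), a gene for the ring subunit c, and Atp5d (0.40), the delta subunit of the head, named after its value was seen. The second +/N440K library, left in that fit, is the highest in the summed level.

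Markers of the sorted cells and of other cells moved with both comparisons against +/+. Of 7 tested double-positive thymocyte markers (of 9) all fell, with sums of 948 to 999 CPM for +/+ and 208 to 220 for +/N440K, and all 7 fell for D/N440K (137 to 138 CPM). Of 6 tested myeloid markers (of 9) 2 rose for +/N440K and 4 for D/N440K, with sums of 155 to 190 CPM for +/+, 266 to 298 for +/N440K and 357 to 371 for D/N440K, and with S100a9 and Elane at 0 throughout. Of 8 markers of the sorted fraction 4 fell and 1 rose for +/N440K, and 3 fell and 1 rose for D/N440K. Their sums, which mix fallen with risen genes, were 4406 to 4566 CPM for +/+, 4577 to 4743 for +/N440K and 4625 to 4745 for D/N440K. Of the 3 genes of the sort gate 2 fell for each genotype (403 to 426 CPM for +/+, 325 to 345 for +/N440K and 319 to 341 for D/N440K). Of 4 tested stromal, epithelial and endothelial markers (of 11) 2 fell for each (180.1 to 184, 108 to 139, and 98.5 to 117 CPM), with Col3a1 at 0. Of 4 tested erythroid markers (of 7) 3 rose for D/N440K against +/+, with sums of 29.1 to 62.4 against 92.5 to 123 CPM. Among 13 proliferation genes 0 were called for +/N440K, and 2 rose and 1 fell for D/N440K. Their sums were 3227 to 3393 CPM for +/+, 3299 to 3491 for +/N440K and 3486 to 3620 for D/N440K. The 1 tested B-lineage marker (of 6) fell for D/N440K alone. The 7 dendritic and MHC class II markers gave 1 higher and 1 lower for each genotype. What part the markers of this paragraph have in the members' values was not tested.

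D/N440K against +/+ gave no called member either, beside 12.4% of the 10910 genes tested, and 3 of 78 had an unadjusted edgeR p under 0.05, beside 22.6% of all genes. DESeq2 called 0, with 0 at its own unadjusted p under 0.05. The members' median was 0.07, beside 0.00 for all genes, with 49 above 0 and 29 below. The interval lay within 2-fold for 67 members and 72.1% of all genes, and the groups did not overlap for 29 members, 18 of them higher in D/N440K, beside 51.0% of all genes.

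Atp5c1, the rotating gamma subunit, had the smallest adjusted p. It had 83.9 and 88 CPM for +/+, 90.6 and 109 for +/N440K and 111 and 109 for D/N440K. All 4 libraries with the mutant allele exceeded both +/+ libraries, and D/N440K was 0.36 ± 0.146 above +/+ (edgeR adjusted p = 0.117). Uqcrh, the hinge protein of complex III, had 41.9 and 39.9 CPM for +/+, 33.5 and 41.5 for +/N440K and 29.1 and 26.5 for D/N440K. Both D/N440K libraries were the lowest of the 6, at -0.55 ± 0.244 against +/+ (edgeR adjusted p = 0.157). The lowest value was that of Ndufa5, an accessory subunit of the peripheral arm, at -1.04 with an interval from -2.25 to 0.17. It rested on 4 and 5 reads for D/N440K and 11 and 8 for +/+. The other extremes were Ndufb8 (-0.39), Ndufb3 (0.60), Ndufb9 (0.56) and Ndufaf6 (0.46).

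D/N440K against +/N440K compared the mutant allele beside D with the same allele beside a normal copy. No member passed the test, beside 0.532% of the 10910 genes tested, and 1 member had an unadjusted edgeR p under 0.05, beside 7.80% of all genes. DESeq2 called 0, with 1 at its own unadjusted p under 0.05 and no adjusted p for 44 members. The median was -0.02, beside 0.00 for all genes, with 32 members above 0 and 46 below, and the groups did not overlap for 17 members, beside 35.4% of all genes. Erythroid markers (3 of 4 tested) rose here too, with sums of 12.8 to 28.6 CPM for +/N440K, and their part was not tested.

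The member nearest to the threshold there was Ndufb8, an accessory subunit of the membrane arm. It had 42.4 and 52.3 CPM for +/N440K, 26.5 and 27.5 for D/N440K and 41.9 and 29.9 for +/+. Both D/N440K libraries were below all 4 others (-0.80 ± 0.243 against +/N440K, edgeR adjusted p = 0.16). Its exons overlap those of Gm20538, and reads of overlapping genes cannot be told apart without knowing whether counting used strand. Ndufa5 was lower still in its fold change, but on 9.79 and 6.91 CPM for +/N440K and 3.43 and 5.09 for D/N440K. The other extremes were Ndufaf3 (-0.45), Ndufs4 (0.64), Ndufb2 (0.48) and Atp5s (0.44), all short of the threshold.

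**Figure D3:**
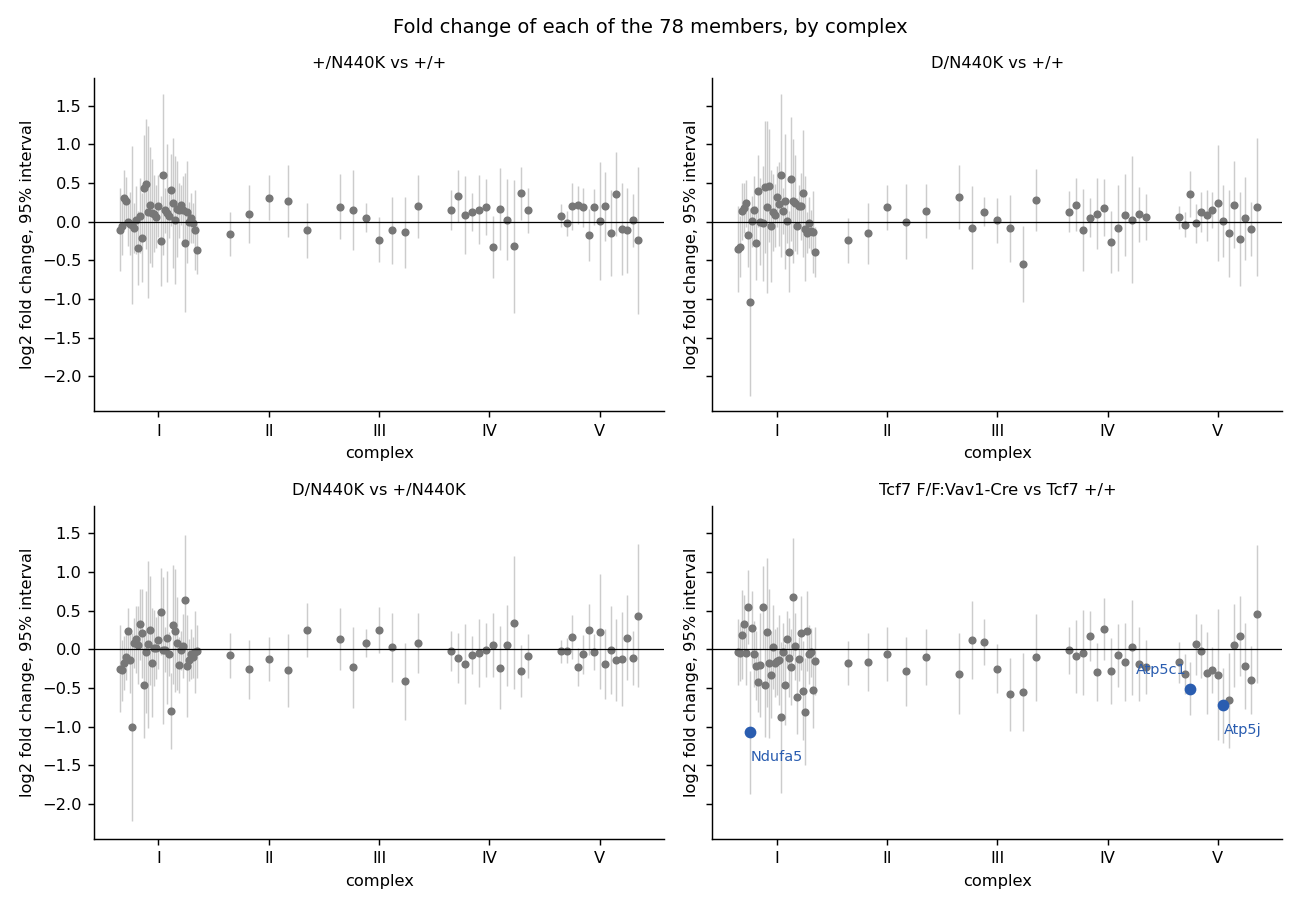
Log2 fold change with its 95% interval for each of the 78 members in the 4 comparisons, by complex. Blue points passed the test (edgeR, adjusted p under 0.05): none in the 3 Bcl11b comparisons, and Atp5j, Atp5c1 and Ndufa5 for Tcf7 F/F:Vav1-Cre against Tcf7 +/+.

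Tcf7 F/F:Vav1-Cre against Tcf7 +/+ addressed Tcf7 in blood cells. Of 78 members, 3 fell and 0 rose (edgeR, adjusted p under 0.05), which is 3.85% of the members beside 23.2% of the 12366 genes tested, and 11.1% of those genes fell. At an unadjusted p under 0.05 there were 13 members, 11 of them lower, beside 34.9% of all genes. DESeq2 called 0 members, with 5 at its own unadjusted p under 0.05. The members' median was -0.14, beside -0.01 for all genes, with 21 above 0 and 57 below. By complex the median was -0.11 for I, -0.16 for II, -0.25 for III, -0.08 for IV and -0.27 for V. The interval lay within 2-fold for 60 members and 60.6% of all genes. The groups did not overlap for 26 members, 20 of them lower in Tcf7 F/F:Vav1-Cre, beside 48.8% of all genes.

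Atp5j (ENSMUSG00000022890, GRCm38 chr16:84827866-84835625, minus strand) encodes subunit F6 of the peripheral stalk, which holds the head of ATP synthase still. Tcf7 +/+ had 41.7 and 66.5 CPM and Tcf7 F/F:Vav1-Cre 34, 35.6 and 28.9. The groups did not overlap, and the +/+ libraries lay further from each other than the lower of them lay from the nearest Tcf7 F/F:Vav1-Cre library. The log2 fold change was -0.72 ± 0.23 (edgeR adjusted p = 0.0307), and without the second Tcf7 +/+ library it was -0.35 (edgeR adjusted p = 0.404). Its exons overlap those of Gabpa, the DNA-binding part of an ETS factor. Gabpa had 96.9 and 123 CPM for Tcf7 +/+ and 69.5, 76.8 and 61.8 for Tcf7 F/F:Vav1-Cre (-0.66 ± 0.171, edgeR adjusted p = 0.00922), and how many reads the overlap gives to each gene was not tested.

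Atp5c1 (ENSMUSG00000025781, chr2:10056016-10080510, minus strand) had 101 and 117 CPM for Tcf7 +/+ and 78.4, 82.5 and 69.5 for Tcf7 F/F:Vav1-Cre. The groups did not overlap, and the log2 fold change was -0.51 ± 0.161 (edgeR adjusted p = 0.0309). Ndufa5 (ENSMUSG00000023089, chr6:24518666-24528013, minus strand) had 13.5 and 11.8 CPM for Tcf7 +/+ and 4.04, 6.78 and 6.68 for Tcf7 F/F:Vav1-Cre, which is 24 and 21 reads against 5, 12 and 12. The groups did not overlap, and the log2 fold change was -1.07 ± 0.378 (edgeR adjusted p = 0.048).

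The calls rested on the full set of libraries. Without any 1 of the Tcf7 F/F:Vav1-Cre libraries, or without the second Tcf7 +/+ library, 0 members were called. Without the first Tcf7 +/+ library, members were called on both sides of 0, at a smaller share than among all genes tested. The lower ones included Ndufs1 (-0.97), Atp5j (-1.02), Uqcrfs1 (-0.89), Uqcrh (-0.84), Atp5c1 (-0.61), Ndufv2 (-0.80) and Atp5b (-0.37). The higher ones included Ndufs7 (0.92), Ndufa3 (0.88) and Ndufaf3 (0.81). With a lone +/+ library, that library is assumed to vary like the other group. The members' median stayed below 0 in each of these 5 fits, from -0.16 to -0.08.

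Other subunits show where the Tcf7 +/+ libraries part. Ndufs1 had 80.6 and 141 CPM for Tcf7 +/+ and 89.8, 74.6 and 54.5 for Tcf7 F/F:Vav1-Cre, so the groups overlapped (-0.62 ± 0.227, edgeR adjusted p = 0.0588). Uqcrfs1 had 46.8 and 77.2 CPM against 42.1, 38.4 and 44 (-0.58 ± 0.223, edgeR adjusted p = 0.0704). In both, the second +/+ library stood well above the rest, and the first lay close to or among the Tcf7 F/F:Vav1-Cre libraries. Ndufs7 went the other way within +/+, with 93 and 42.3 CPM against 80.1, 72.9 and 86.2.

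Atp5b, the catalytic beta subunit, had 403 and 435 CPM for Tcf7 +/+ and 376, 321 and 314 for Tcf7 F/F:Vav1-Cre, without overlap (-0.32 ± 0.124, edgeR adjusted p = 0.0761). Atp5a1 had 504 and 584 CPM against 546, 462 and 449.5 and overlapped. All 4 members of the peripheral stalk had values below 0, as had 57 of the 78 members: Atp5j, which passed, and Atp5o (-0.40), Atp5h (-0.33) and Atp5f1 (-0.30), which did not. The stalk sums overlapped, at 128 and 192 CPM for Tcf7 +/+ against 107, 133 and 108 for Tcf7 F/F:Vav1-Cre. Atp5o did not overlap between the groups, whereas Atp5h and Atp5f1 did. For Atp5f1 the first Tcf7 +/+ library was the lowest of the 5. The 5 complex II members were all below 0, and none passed. Sdha, which oxidises succinate, had 193 and 223 CPM against 197, 179 and 177 and overlapped (-0.17). Among core subunits of complex I, Ndufv1 had 103 and 100.3 CPM against 103, 100.0 and 94.6, and Ndufs8 had 63.1 and 63.7 against 60.6, 62.2 and 59, with all 5 libraries close together in each. The remaining extremes were Ndufb3 (-0.88) and Ndufs6 (-0.80) below 0 and Ndufc1 (0.68), Ndufa3 (0.55) and Ndufaf3 (0.54) above, and none of them passed.

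**Figure D4:**
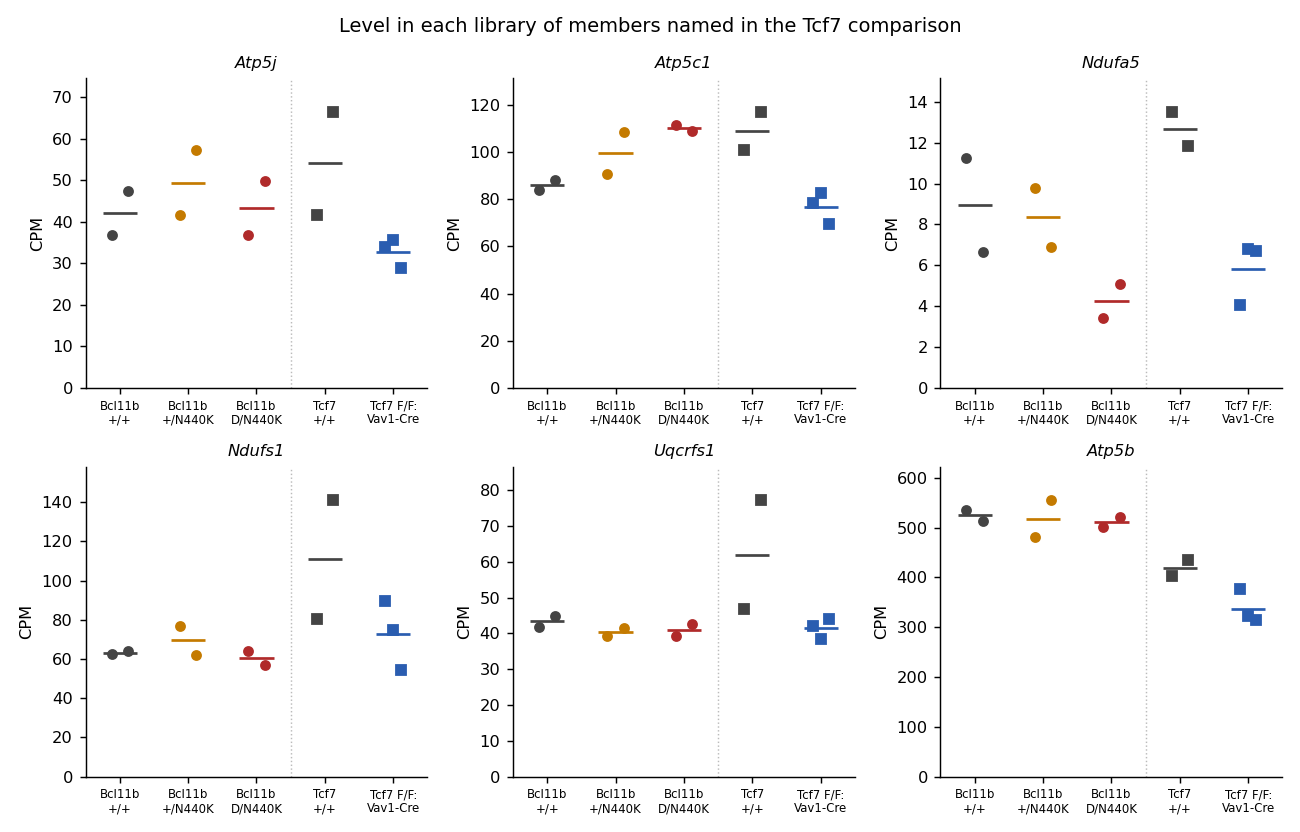
CPM in each library (points) and group means (lines) for Atp5j, Atp5c1 and Ndufa5, which passed the test in the Tcf7 comparison, and Ndufs1, Uqcrfs1 and Atp5b, which did not. In Atp5j, Ndufs1 and Uqcrfs1 the Tcf7 +/+ libraries stand apart, at 41.7 and 66.5, 80.6 and 141, and 46.8 and 77.2 CPM.

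Markers of the sorted cells and of other states and cell types moved with the Tcf7 comparison. Of 8 markers of the sorted fraction 5 fell and 1 rose, with sums of 3828 to 4159 CPM for Tcf7 +/+ and 3013 to 3495 for Tcf7 F/F:Vav1-Cre, and of the 3 genes of the sort gate 2 fell (250.2 to 258 against 152 to 184 CPM). Of 13 proliferation genes 6 fell and 0 rose, with sums of 2413 and 3267 CPM for Tcf7 +/+ and 1773 to 1857 for Tcf7 F/F:Vav1-Cre. Of 6 tested myeloid markers (of 9) 3 rose, with sums of 457 to 800 against 1158 to 1313 CPM and Elane at 0. Of 5 tested stromal, epithelial and endothelial markers (of 11) 3 rose (219 to 263 against 864 to 960 CPM), and of 7 dendritic and MHC class II markers 3 rose (1441 to 1995 against 2074 to 2258 CPM). Of 6 B-lineage markers 5 fell (150.5 to 158 against 43.5 to 56.6 CPM). Of 8 tested double-positive thymocyte markers (of 9) 6 fell and 2 rose, with a median log2 fold change of -3.73. Their sums overlapped, at 1169 to 1212 against 1105 to 1171 CPM, and a sum mixes fallen with risen genes. The part of all these markers in the members' values was not tested.

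The other genes of energy metabolism give the setting. Of 20 tested glycolysis genes (of 23), 10 fell for +/N440K and 13 for D/N440K against +/+, and 0 rose. Beside this, 10.1% and 12.4% of all genes tested were called in either direction. The glycolysis medians were -0.42 and -0.45, while those of the oxidative phosphorylation members were 0.09 and 0.07. The lists were chosen with earlier results of these data known, and the difference between them was not tested. Pfkp, a phosphofructokinase subunit, had 345 and 358 CPM for +/+, 241 and 227 for +/N440K and 201 and 174 for D/N440K. It was at -0.59 ± 0.0963 for +/N440K (edgeR adjusted p = 2.15e-05) and -0.90 ± 0.101 for D/N440K (edgeR adjusted p = 6.51e-09). Pkm, pyruvate kinase, had 519.7 and 467 CPM for +/+, 365 and 360.3 for +/N440K and 359 and 382 for D/N440K. Both genes were lower in every library with the mutant allele than in both +/+ libraries. DESeq2 called 2 and 6 glycolysis genes lower in place of 10 and 13, and without the first +/N440K library 6 were lower for +/N440K. Between D/N440K and +/N440K edgeR and DESeq2 called 0.

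For Tcf7 F/F:Vav1-Cre 6 of the 20 tested glycolysis genes fell and 1 rose, beside 11.1% of all genes lower and 23.2% called. Slc16a1, a lactate and pyruvate carrier, had 53.5 and 74.4 CPM for Tcf7 +/+ and 5.66, 7.91 and 10.6 for Tcf7 F/F:Vav1-Cre (-2.94 ± 0.273, edgeR adjusted p = 4.7e-07). Ldhb, Tpi1 and Pfkp fell by 1.63, 0.86 and 0.59 on the log2 scale, and Slc16a3, another lactate carrier, was the gene that rose (0.86). With single libraries left out the count lower ran from 4 to 6.

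Of 19 tricarboxylic acid cycle genes, which feed electrons to complexes I and II, Idh2 fell for D/N440K against +/+ (-0.80 ± 0.201, edgeR adjusted p = 0.0041), and no other was called in any of the 4 comparisons. Of the tested genes among 35 assembly factors outside the naming rule and 20 electron carriers and related genes, edgeR called 0 in each of the 4 comparisons. Cycs, cytochrome c itself, stood between 0 and 4.08 CPM over all libraries, and 26.2% of the 50-base windows of its transcripts also occur in transcripts of other genes.

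The 13 messenger RNAs of mitochondrial DNA, whose products join the members in complexes I, III, IV and V, are listed at 0 in every library of the Bcl11b table. In the Tcf7 libraries 6 of them, mt-Nd3, mt-Nd4l, mt-Co2, mt-Co3, mt-Atp6 and mt-Atp8, are listed at 0 throughout. Zeros of genes that nearly all cells use cannot be read as absence. Of the other 7, 6 fell for Tcf7 F/F:Vav1-Cre and 0 rose, among them mt-Nd2 (-0.84 ± 0.183, edgeR adjusted p = 0.00294) and mt-Nd5 (-0.74 ± 0.165, edgeR adjusted p = 0.00319). mt-Co1, the catalytic subunit of complex IV, was at -0.42 and did not pass (edgeR adjusted p = 0.0617). Their sum was 1901 and 2867 CPM for Tcf7 +/+ and 1725, 1517 and 1353 CPM for Tcf7 F/F:Vav1-Cre. Divided by the nuclear members' sum of the same library, this gave 0.369 and 0.546 for Tcf7 +/+ and 0.36, 0.308 and 0.302 for Tcf7 F/F:Vav1-Cre. The second Tcf7 +/+ library was the highest, as it was in the proliferation sum. The count lower was 1 with no filter on low counts and ran from 4 to 7 with single libraries left out.

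Among 24 genes of mitochondrial protein import and folding, 22 were tested in the Tcf7 table and 4 fell: the chaperones Hspa9 (-0.97), Hspd1 (-1.30) and Hspe1 (-0.99), and the import receptor Tomm70a (-0.60). Over all genes tested, 11.1% fell and 23.2% were called in either direction. The count was 2 with DESeq2, 0 with no filter on low counts, and from 2 to 5 with single libraries left out. Of 21 tested regulators of mitochondrial biogenesis (of 23), Myc (-1.80), Hif1a (-0.87) and Gabpa fell and Mycn rose (1.04). Myc had 141 and 152 CPM for Tcf7 +/+ and 42.9, 46.3 and 36.7 for Tcf7 F/F:Vav1-Cre. Nrf1, an activator of respiratory genes, and Tfam, which packages mitochondrial DNA, were at -0.15 and -0.33 and did not pass. In the Bcl11b comparisons edgeR called 0 genes of these 2 lists.

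**Figure D5:**
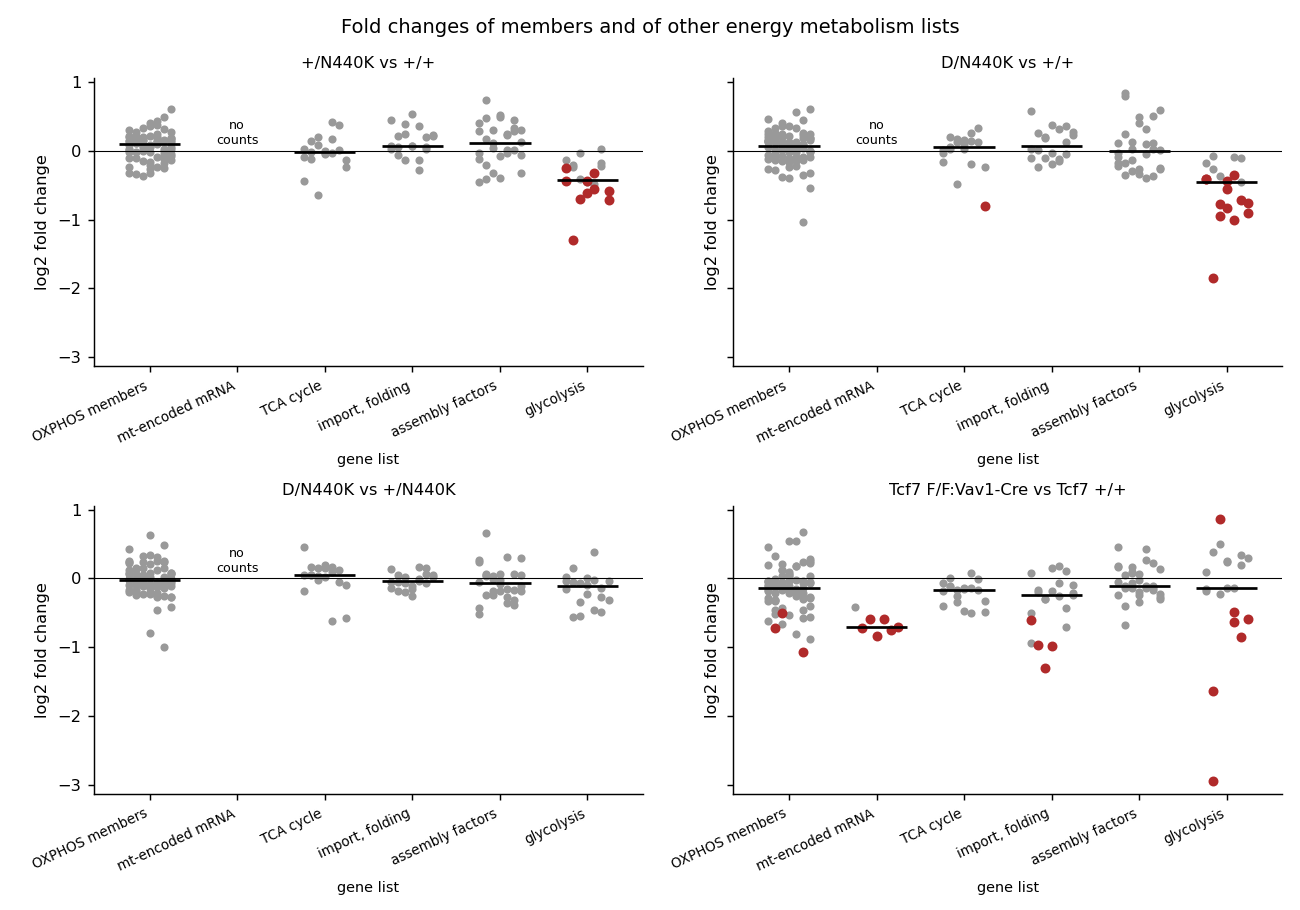
Log2 fold change of the oxidative phosphorylation members and of 5 other lists in the 4 comparisons; red points passed the test (edgeR, adjusted p under 0.05) and lines are medians. Glycolysis has 10 and 13 red points, all below 0, for +/N440K and D/N440K against +/+, where the members have none. Of all genes tested, 10.1% and 12.4% were called in those comparisons. The 7 counted mitochondrial messages lie below 0 in the Tcf7 comparison.

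Members were also set apart by the promoter letters described above. In the Tcf7 comparison the median log2 fold change was -0.04 over the 20 matched members with NRF1 or ETS letters and -0.15 over the 46 without. For +/N440K against +/+ it was 0.12 and 0.04, for D/N440K against +/+ it was 0.11 and 0.01, and for D/N440K against +/N440K it was -0.06 and -0.02, in the other order. These are descriptions without a test.

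Most of the 21 protein-coding genes of the naming rule that were not kept were at low counts. Cox6a2 had 168 reads over the Tcf7 libraries. Of the 21, none tested in either table passed (smallest edgeR adjusted p = 0.237, Sdhaf3). Atp5g1, a gene for subunit c, was in the Bcl11b normalized table alone, at 8.14 to 13.3 CPM. Atp5g2, another gene for subunit c, had 20 reads over the Bcl11b libraries and 22 over the Tcf7 libraries, and 36.7% of its 50-base windows occur elsewhere. Uqcrb had 10 and 22 reads and 25.4% of such windows, Ndufs5 had 7 and 23 reads and 21.7%, and Ndufb4 had 14 and 37 reads and 18.3%. Cox6a2, known as a heart and muscle form, was in the Tcf7 normalized table alone, at 8.9 to 33.8 CPM, and so were Ndufa12, Ndufaf1, Sdhaf1, Sdhaf3, Sdhaf4 and Usmg5. Cox4i2, Cox6b2, Cox7a1, Cox8b, Ndufa4l2 and Ndufaf2 had 2 to 25 reads a table, and Cox7b2, Cox8c and a second gene identifier of Atp5o had 0. Among the members, 37 of 78 share some windows with another gene and 5 share more than 10%, Cox7c with 22.1% the most. Exons of 28 members overlap those of another gene.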

How the data were processed

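RNA was measured in 11 libraries made by a modified RamDA-seq, a total-RNA method, per the labels' protocols. The deposited tables of counts hold whole reads per Ensembl gene. The tools named in the submitters' processing notes are STAR 2.7.3a, HTSeq 0.11.2, fastp 0.20.0, Picard 2.21.1, SAMtools 1.9 and edgeR, with mm10. The strand of counting is not given in the sources used here. The authors' normalized tables hold CPM, of which 100% came out as whole reads within 0.001. The test on those reads called as many genes (1101, 1353, 58 and 2863). Their scaling used the deposited counts of the same genes, so equal calls are no independent check.

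Here edgeR 4.0.16 (R 4.3.3) kept genes by filterByExpr (minimum count 10), normalized by TMM and fitted a quasi-likelihood model to all groups of a table, with 3 residual degrees of freedom. Tests are two-sided with Benjamini-Hochberg adjustment over the table. The SE is the absolute log2 fold change divided by the root of F. The fit was tested on simulated data. Positions and exon lengths are from GENCODE. Members and lists were chosen with earlier results of these data known. Named are called members, 3 extremes at each end of a comparison or level order, a fixed set of subunits, and up to 4 called genes of another list. Atp5s was matched by identifier. Members had as few as 4 reads in a library.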

Additional observations from a re-analysis of the deposited data

How the results depend on the processing

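Counts of members past the threshold stayed at 0 in both directions for D/N440K against +/+ and against +/N440K under RLE scaling, other filters, DESeq2, limma on the authors' CPM (pseudocount 1), a replicate block, a fit of the compared pair alone, and single libraries left out. For +/N440K against +/+ the count higher ran from 0 to 2 with libraries left out. For Tcf7 F/F:Vav1-Cre against Tcf7 +/+ the 3 lower members became 0 with no filter, with DESeq2 and with any 1 Tcf7 F/F:Vav1-Cre library left out. With 1 Tcf7 +/+ library left out, the other stands alone in its group, and the counts depended on which was kept. The cause was not tested. Replicate numbers did not pair the libraries (correlations of same-numbered libraries from -0.108 to 0.0729), and with the replicate block that count was 0. Calls over all genes in the 4 comparisons (1101, 1353, 58 and 2863) were 357, 528, 4 and 1961 with DESeq2. Those of the last were 1606 with no filter and 1700 to 4612 with libraries left out. The members' median for D/N440K against +/N440K changed sign with libraries left out, from -0.0939 to 0.0592, and those of the other comparisons kept theirs. Of 2440 values of 47 named members under alternatives, most were uncalled in the main fit and had no call to lose. Only the 3 members called in the Tcf7 comparison had one, and 23 of their values lost it. Among all 2440 values, 12 gained a call, 0 turned while called, and 139 uncalled values changed sign. The length of the principal transcript gave medians of 54.2 and 49.9 CPM per kb in place of 27.8 and 27.6. That length, the recovered reads and the counts of other lists were added after seeing the data.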
